A study of Homo sapiens with 15 samples.

Results

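The comparison was between day 4 and day 2 of definitive endoderm differentiation in H9, a widely used line of human embryonic stem cells. It rested on 6 of the 15 libraries of the series, 3 from day 4 and 3 from day 2, picked by the day in each library's title. On both days the cells had come from E8 maintenance culture, had been passaged as single cells and had been placed in Advanced RPMI 1640 with activin A, a ligand that acts through the same receptors as Nodal. Both groups had also received CHIR99021, a GSK3 inhibitor that turns on Wnt signalling, during the first day. The groups therefore differed by 2 further days in activin A alone. The labelled protocol gives the activin A phase as 4 days although the last collection was day 4, and the design text describes triplicate experiments without saying whether the replicates numbered 1, 2 and 4 were separate cultures. The p-values come from a fit of all 15 libraries, so they measure the spread between libraries of a day, pooled over all days. This spread may be technical, and a single cell line stands for each day.

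Definitive endoderm forms when cells that leave the primitive streak receive strong Nodal signalling. SMAD2 and SMAD3, activated by the receptors, act with factors such as EOMES, MIXL1 and FOXH1 to turn on GATA6, SOX17 and FOXA2, and the FOXA and GATA proteins can bind closed chromatin and prepare genes for later use in gut, liver and pancreas. CXCR4, the receptor of the chemokine CXCL12, is used to sort definitive endoderm, and ERBB4 is a neuregulin receptor. As the tissue matures it becomes an epithelial sheet on a basement membrane, and secreted inhibitors of Nodal, Wnt and BMP signals mark its anterior end.

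The 6 libraries held 54723184 to 115442078 counts, and 17401 of 23346 gene symbols passed the filter on low counts. Levels are given in CPM, the counts scaled by library size and TMM factor, without correction for transcript length, so they compare libraries and not genes. A count of 3 corresponded to 0.026 to 0.0548 CPM. Day 2 replicate 4 stood apart from the other day 2 libraries, with read-pair counts that differed from theirs by a chi-square of 454 and 316 for each degree of freedom, while these differed from each other by 42.7. On day 4, replicate 1 stood apart in the same way, at 521 and 401 against 93.4 for replicates 2 and 4. The share of counts from ribosomal protein genes was 2.24%, 2.29% and 5.49% in day 2 replicates 1, 2 and 4 and 2.23%, 4.28% and 4.90% on day 4, so each day held libraries below and above 3%. In bulk libraries a lower level can come from fewer cells of a type or from less RNA per cell, which cannot be told apart.

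Cells on day 4 had more FOXA2 and CXCR4 RNA than on day 2. FOXA2 stood at 25.9, 24.3 and 8.82 CPM in day 2 replicates 1, 2 and 4 and at 171, 210.0 and 89.6 CPM in the same replicates of day 4 (log2 fold change 2.99, SE 0.57, edgeR adjusted p = 0.013). CXCR4 stood at 34.4, 32.4 and 11.3 CPM on day 2 and at 101, 509 and 205 CPM on day 4 (log2 fold change 3.38, SE 0.65, edgeR adjusted p = 0.0143). For both genes every day 4 library was above every day 2 library. ERBB4 went from 220.3, 208 and 62.2 CPM to 362, 1504 and 1473 CPM, also without overlap, but its adjusted p of 0.138 in edgeR's quasi-likelihood test did not pass 0.05, with a log2 fold change of 2.77 and an SE of 0.95. Leaving out day 2 replicate 1 or 2 ended the calls of FOXA2 and CXCR4 (edgeR adjusted p 0.0576 to 0.0666), and leaving out day 4 replicate 2 ended that of CXCR4 (adjusted p = 0.0533).

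Other early endoderm regulators were already high on day 2. SOX17, a factor needed for endoderm, was at 94.3, 67.2 and 87.1 CPM on day 2 and 74.5, 204 and 246 CPM on day 4, with day 4 replicate 1 inside the day 2 range and the other day 4 libraries above it (edgeR adjusted p = 0.23). GATA4 was at 159, 139.9 and 259 and then 201, 473 and 466 CPM, and GATA6 at 612, 634 and 659.5 and then 124, 697 and 569.8 CPM (edgeR adjusted p = 0.176 and 0.701). On day 0 the mean levels of SOX17, GATA4 and GATA6 were 0.844, 1.72 and 3.17 CPM. In each of the 6 libraries the endoderm markers FOXA2, CXCR4, ERBB4, SOX17, GATA4, GATA6, CER1 and EOMES were thus detected above their day 0 means, with the exception of FOXA2 in day 2 replicate 4, where 8.82 CPM compared with a day 0 mean of 10.5 CPM.

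**Figure D1:**
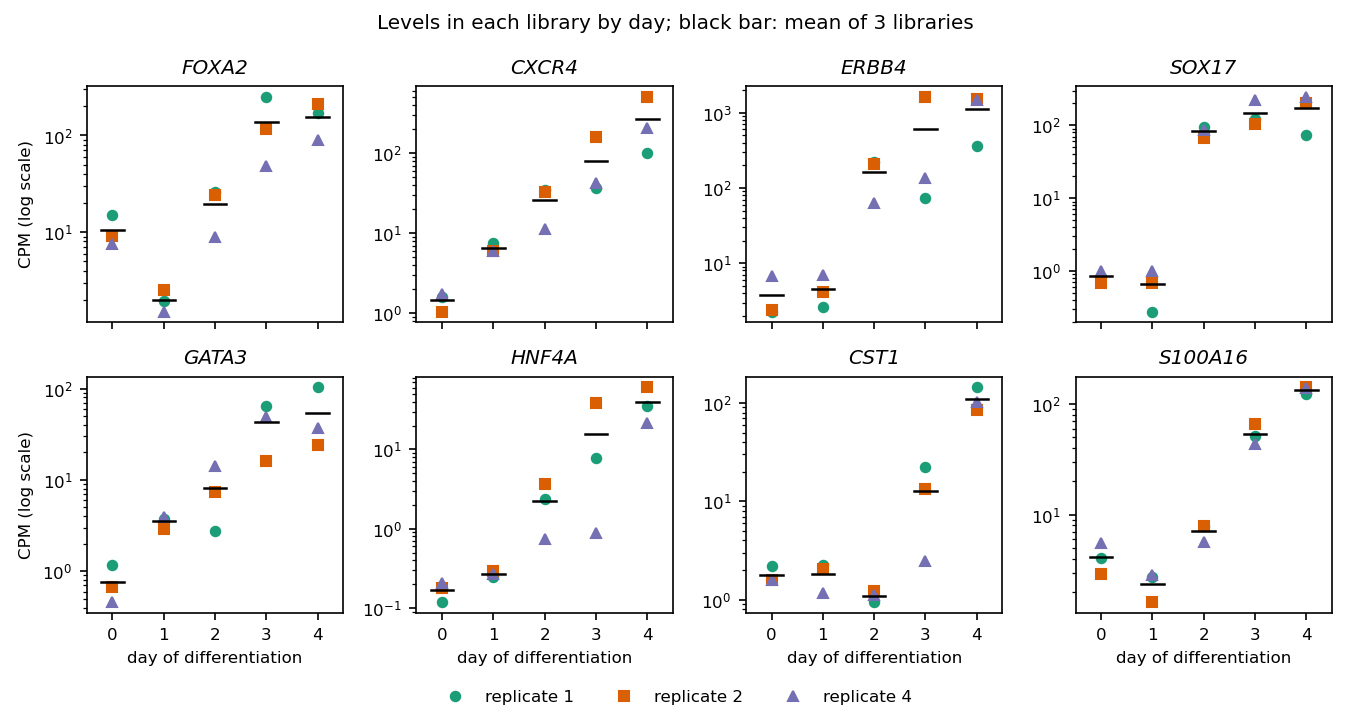
Level of 8 genes in each of the 15 libraries, with the day of differentiation on the x axis and CPM on a log y axis. Symbols are the 3 replicates and black bars are their means. FOXA2, CXCR4, GATA3, HNF4A, CST1 and S100A16 have all 3 day 4 libraries above all 3 day 2 libraries, whereas SOX17 in day 4 replicate 1 (74.5 CPM) lies within the day 2 range.

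Some markers of other cell types were at or near 0, while other members of their lists were present or rose. Only part of each list is named here. Against 1.88% of all genes tested, edgeR called COL4A2 higher among 17 extraembryonic endoderm genes, VWF among 16 blood and endothelial genes and GATA3 among 14 trophoblast and amnion genes, and 0 lower in these lists (unadjusted 7, 4 and 3 higher and 0, 0 and 1 lower, DESeq2 5, 1 and 2 higher). Over all 17401 genes tested an unadjusted p under 0.05 held for 1648 higher and 1393 lower, and DESeq2 called 890 and 444. The extraembryonic endoderm genes summed to 2502 to 2861 CPM on day 2 and 2956 to 5365 CPM on day 4. Of these genes 13 of 17 had a change above 0, against 50.9% of all genes tested. Their median log2 fold change was 0.83, or 0.41 without day 4 replicate 1. Of the 18 genes listed, 12 had a mean of at least 1 CPM on day 2 and 15 on day 4. TTR of that list was at 0 in all 6 libraries and AFP, a yolk sac and liver product, was at most 0.177 CPM, so these genes do not stand for the list. The neural factor SOX1 was at 0. Blood and endothelial genes summed to 238 to 405 CPM and then 425 to 458 CPM, and trophoblast and amnion genes to 73.7 to 261 CPM and then 111 to 250.5 CPM. Trophoblast genes CGA and CGB5 were at most 0.0393 CPM and GCM1 was between 0.11 and 0.177 CPM. Among mesoderm markers MESP1 was at 2.03, 2.69 and 38.4 CPM on day 2 and 2.18, 2.1 and 2.23 CPM on day 4, highest in day 2 replicate 4, and HAND1 was at 58.2, 96.6 and 215 and then 109, 27.2 and 98.1 CPM. PAX6, a factor of neural and of pancreatic progenitors, was at 2.96, 3.09 and 0.767 CPM on day 2 and at 2.34, 60.5 and 17.5 CPM on day 4, so that day 4 replicate 1 overlapped day 2. Over 23 mesoderm genes, edgeR called 0 in either direction (unadjusted p under 0.05 for 2 higher and 2 lower, DESeq2 2 higher and 1 lower) and the summed level was 444 to 804 CPM on day 2 and 280.0 to 661 CPM on day 4. The unadjusted mesoderm shares were near those of all genes tested. Over 18 neural and surface ectoderm genes edgeR also called 0 (unadjusted 4 higher, DESeq2 4 higher), with SOX1 and KRT14 at 0 in all 6 libraries and sums of 344 to 380.2 and 226 to 532 CPM. Their part in the results was not tested.

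Across all genes tested, edgeR's quasi-likelihood test with Benjamini-Hochberg adjustment called 327 genes higher on day 4, which is 1.88% of the 17401 tested, and 101 lower, which is 0.58%, or 2.46% in either direction. These calls use the spread pooled over all days, and a fit of days 2 and 4 alone called 86 higher and 12 lower. Without adjustment, edgeR's p was under 0.05 for 1648 genes higher and 1393 lower, and DESeq2 called 890 and 444. The unadjusted and DESeq2 counts of gene lists stand against these numbers of the 17401, not against 1.88% and 0.58%. The changes of the 327 and 101 genes called by edgeR were large, as the median absolute log2 fold change was 2.73 among the higher genes and 1.88 among the lower, and 238 and 49 of them changed at least 4-fold. The groups of libraries did not overlap for 323 of the 327 higher genes and 100 of the 101 lower genes, while over all genes tested 10.8% had every day 4 library above and 9.64% below every day 2 library, 20.4% in all. Levels on the lower day were often small: 111 of the higher genes had a mean below 1 CPM on day 2. The number called depended strongly on single libraries. Dropping day 2 replicate 1 left 30 higher and 10 lower, and dropping day 2 replicate 2 left 55 and 16. The same for day 4 gave 165 and 18 with replicate 2 dropped and 238 and 50 with replicate 4 dropped. Without the libraries that stood apart it was 302 and 138 (day 2 replicate 4) and 351 and 144 (day 4 replicate 1). All 428 called genes kept their direction and an unadjusted p under 0.05 whichever library was left out, but 28 higher and 8 lower genes remained called in all 6 of these fits.

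**Figure D2:**
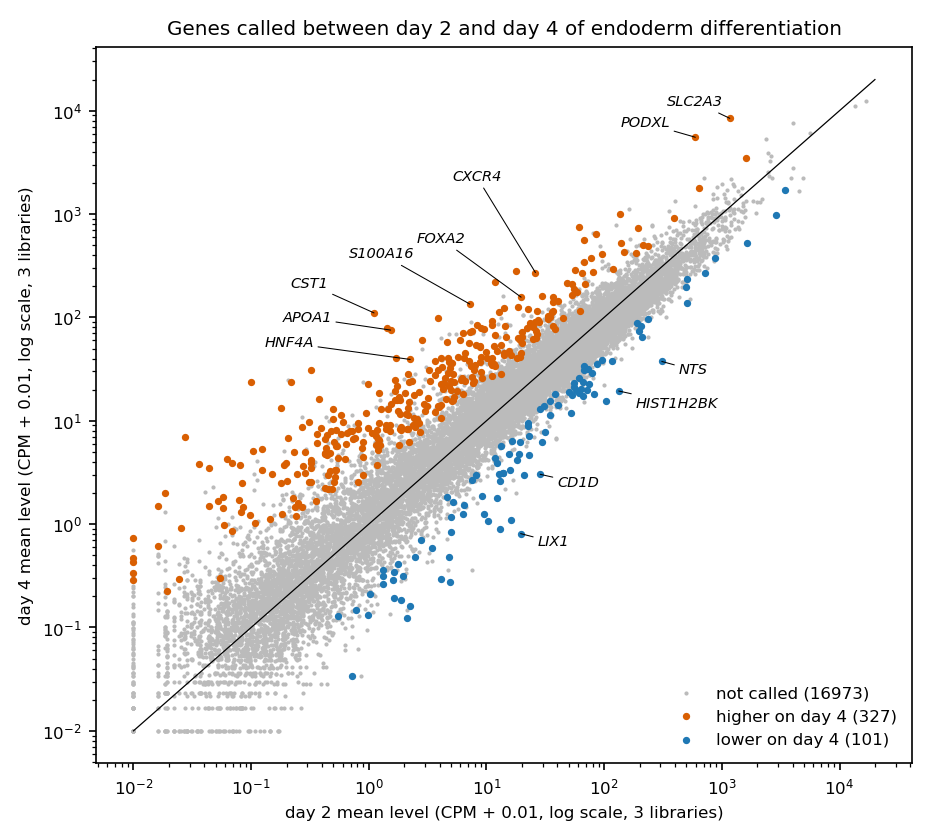
Mean level of each of 17401 genes on day 2 (x axis) and day 4 (y axis), in CPM plus 0.01 on log axes. Orange points are the 327 genes called higher on day 4, blue points the 101 called lower and grey points the 16973 not called, and the line marks equal levels.

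Transcription factors of definitive endoderm rose as a minority of their list. Of 14 factors tested, 4 were called higher (FOXA1, FOXA2, FOXA3 and GATA3) and 0 lower (unadjusted p under 0.05 for 6 higher and 0 lower, DESeq2 4 and 0), against 1.88% and 0.58% of all genes tested. The list's median log2 fold change was 0.78, against 0.02 over all genes tested. FOXA3, a liver and gut member of the family, was at 8.18, 8.81 and 16.5 and then 33.1, 59.1 and 29.3 CPM (log2 fold change 1.86, SE 0.46, edgeR adjusted p = 0.0465), and FOXA1 reached 4.44, 6.37 and 0.424 CPM from at most 0.301 CPM (edgeR adjusted p = 0.0272). For both, all day 4 libraries were above those of day 2, though FOXA1 in day 4 replicate 4 was only just above. GATA3, which also marks trophoblast, was at 2.78, 7.38 and 14.2 CPM on day 2 and 103, 24.1 and 36.7 CPM on day 4 (edgeR adjusted p = 0.04), highest in day 4 replicate 1. Regulators of the later gut tube were called higher for 3 of 14 tested (HNF4A, FOXP2 and IHH) and lower for 0 (unadjusted 5 higher and 1 lower, DESeq2 4 and 1), with a median log2 fold change of 0.81, which became 0.27 with 7 of 14 below 0 without day 4 replicate 1 and 1.30 without day 2 replicate 4. HNF4A, the nuclear receptor at the centre of the liver and gut programme, was at 2.36, 3.61 and 0.74 CPM on day 2 and at 35.6, 60.4 and 21.6 CPM on day 4 (log2 fold change 4.13, SE 0.94, edgeR adjusted p = 0.0329). On day 3 it was at 7.84, 38.6 and 0.874 CPM, so that replicate 4 was then still at its day 2 level. FOXP2 went from 0.46, 0.502 and 0.192 to 14.7, 6.89 and 3.96 CPM (edgeR adjusted p = 0.0109). The edgeR calls of FOXA1, FOXA3, GATA3, HNF4A and FOXP2 were lost without day 2 replicate 1 (adjusted p 0.0666 to 0.225) and without day 2 replicate 2 (0.0564 to 0.214). Day 4 replicate 2 ended the calls of FOXA1, FOXA3 and HNF4A (0.094 to 0.212), day 4 replicate 4 those of FOXA3 and GATA3 (0.0504 to 0.0601), day 4 replicate 1 that of GATA3 (0.0911) and day 2 replicate 4 that of HNF4A (0.0655).

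A few genes of apolipoproteins and other serum proteins, products of liver and yolk sac endoderm, rose. The list already summed to 655 to 1015 CPM on day 2, against 2066 to 4394 CPM on day 4. Of 14 tested, APOA1, APOA2 and FGA were called higher and 0 lower, against 1.88% and 0.58% of all genes tested. Without adjustment 7 were higher and DESeq2 called 6 higher, against 1648 and 890 of all 17401 genes tested. The list's median log2 fold change was 1.28, with 10 of 14 above 0, against 50.9% of all genes tested. APOA1, the main protein of high density lipoprotein, was at 1.77, 2.36 and 0.438 CPM on day 2 and at 98.1, 71.4 and 56.6 CPM on day 4 (log2 fold change 5.63, SE 1.00, edgeR adjusted p = 0.00981). Its day 3 levels were 7.68, 13.8 and 0.316 CPM. APOA2 was at 0.0737, 0.151 and 0.685 and then 4.61, 17.7 and 7.07 CPM (log2 fold change 5.03, SE 0.95, edgeR adjusted p = 0.013), and the groups did not overlap for either gene. HP, haptoglobin, was at 0, 0.0502 and 0.0274 CPM on day 2 and 2.12, 5.01 and 4.31 CPM on day 4, and the fibrinogen gene FGA at 0.0184, 0 and 0 and 3.87, 0.379 and 0.212 CPM, both from day 2 levels at or near 0. The listed genes TTR, SERPINA1, FGB and FABP1 were at 0 in all 6 libraries. APOE, chosen after its values were seen, was at 45.5, 56.1 and 275 CPM on day 2 and 252, 1117 and 1002 CPM on day 4 and was not called (edgeR adjusted p = 0.111), with day 2 replicate 4 above day 4 replicate 1. The edgeR calls of APOA1, APOA2, HP and FGA were lost without day 2 replicate 1 (adjusted p 0.051 to 0.182), those of APOA2 and FGA also without day 2 replicate 2 (0.0897 to 0.197), and that of FGA without day 2 replicate 4, day 4 replicate 1 or day 4 replicate 2 (0.0669 to 0.124).

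Promoters of a few of the genes that rose are printed to show where letters bound by endoderm factors occur near their starts. They were picked by hand, each holds a match, and they do not stand for the genes called higher. The sequences are the 250 bases before the start taken for each gene from RefSeq (GRCh38.p14), 5′ to 3′ on the gene's strand, with the match in capitals. Other starts of a gene were not looked at, and gene counts do not show which start was used. APOA2 lies on the minus strand (chr1:161223629-161223878) and holds a forkhead match of FOXA proteins, GTAAACA, which is TGTTTAC on the opposite strand, 42 to 36 bases before the start. HNF4A lies on the plus strand (chr20:44355449-44355698) and holds a GATA match, AGATAA, 26 to 21 bases before the start. FRZB, a secreted Wnt inhibitor described further on, lies on the minus strand (chr2:182866638-182866887) and holds TTATCT, the GATA match of the opposite strand, 215 to 210 bases before the start.
APOA2: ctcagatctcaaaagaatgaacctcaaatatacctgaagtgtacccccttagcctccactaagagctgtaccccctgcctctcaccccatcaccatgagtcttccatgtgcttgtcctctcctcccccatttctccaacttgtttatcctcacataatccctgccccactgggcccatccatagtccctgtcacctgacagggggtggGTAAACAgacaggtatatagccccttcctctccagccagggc
HNF4A: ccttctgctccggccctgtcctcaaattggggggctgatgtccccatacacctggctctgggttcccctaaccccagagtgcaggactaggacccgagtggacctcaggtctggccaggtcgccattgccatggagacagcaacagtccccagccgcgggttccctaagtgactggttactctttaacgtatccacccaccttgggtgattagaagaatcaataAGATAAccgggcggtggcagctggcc
FRZB: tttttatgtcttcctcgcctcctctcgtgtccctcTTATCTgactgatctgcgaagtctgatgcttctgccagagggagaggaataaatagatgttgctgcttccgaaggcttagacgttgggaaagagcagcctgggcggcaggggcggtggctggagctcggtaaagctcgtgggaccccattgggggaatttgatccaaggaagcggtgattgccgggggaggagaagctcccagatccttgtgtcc
The forkhead letters TGTTTAC, read on both strands, occurred in 6 of 240 such windows of genes called higher (2.5%), in 1.89% of 12866 windows of genes tested and in 2.98% of all 27305 windows. The GATA letters AGATAA occurred in 15 of the 240 (6.25%), in 5.26% of those tested and in 9.37% of all windows. For CAAAGTNCA, letters of HNF4 sites, the figures were 2 of 240 (0.833%), 0.591% and 0.912%. The shares in genes called higher were thus near those of genes tested and below those of all windows. In the 83 windows of genes called lower the shares were 2.41%, 6.02% and 0%, so the forkhead and GATA shares of these genes were also above those of genes tested. A match is a description of the letters and not a bound site.

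Surface and secreted genes of endoderm had a median log2 fold change of 1.39, which fell to 0.90 without day 4 replicate 2. Of 20 tested, 7 were called higher (CXCR4, EPCAM, TMPRSS2, S100A16, SEMA3E, TNNC1 and DIO3) and 0 lower (unadjusted 12 higher and 2 lower, DESeq2 8 and 0), and 9 had all day 4 libraries above day 2 and 2 below. Over all genes tested 1.88% were called higher, and 10.8% and 9.64% lay above and below day 2 in this way. S100A16, a small calcium binding protein, was at 7.94, 7.98 and 5.67 CPM on day 2 and at 124, 141 and 138 CPM on day 4 (log2 fold change 4.23, SE 0.34, edgeR adjusted p = 3.17e-05). The day 4 libraries lay close together and far above day 2. TMPRSS2, a membrane serine protease, was at 2.45, 3.19 and 4.03 and then 58.1, 11.1 and 24.6 CPM (edgeR adjusted p = 0.00655). TNNC1, a troponin C also known from endoderm, was at 1.9, 1.91 and 2.3 and then 24.1, 11.7 and 20 CPM (edgeR adjusted p = 0.00328). VWF, best known from endothelium, was at 14.1, 18.3 and 5.64 and then 140.2, 148 and 52.6 CPM (edgeR adjusted p = 0.0101), beside the endothelial markers CDH5 at 2.06, 0.399 and 0.601 CPM and PECAM1 at 0.864, 0.16 and 0.106 CPM on day 4, whose part in it was not tested. S100A16 and TNNC1 kept their edgeR calls without each library in turn, while those of TMPRSS2 and VWF were lost without day 2 replicate 1 (adjusted p 0.0545 to 0.0624).

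The S100 gene cluster held further increases. S100A14 was at 0.0737, 0.126 and 0.0822 CPM on day 2 and at 4.81, 5.07 and 5.3 CPM on day 4 (log2 fold change 5.74, SE 0.71, edgeR adjusted p = 0.00128), and S100A13 at 4.73, 6.4 and 15.6 and then 31.4, 88.6 and 117 CPM (edgeR adjusted p = 0.0192). In RefSeq the genes S100A16, S100A14 and S100A13 are neighbours on chromosome 1, with 1118 and 2474 bases between them, and whether reads were assigned by strand is not given. S100A10, the partner of annexin A2, was at 51.1, 48.8 and 44.8 and then 226, 207 and 215 CPM (edgeR adjusted p = 0.0361). Secreted cystatins, inhibitors of cysteine proteases, also rose. CST1 was at 0.939, 1.23 and 1.12 CPM on day 2 and at 144, 84.7 and 103 CPM on day 4 (log2 fold change 6.65, SE 0.67, edgeR adjusted p = 0.000216), with day 3 libraries in between at 22.4, 13.4 and 2.45 CPM. CST2 was at 0, 0.0251 and 0.0274 and then 10.3, 6.77 and 3.75 CPM, and CST3 at 11.3, 11.7 and 12.1 and then 65, 65.6 and 71.4 CPM (edgeR adjusted p = 0.0102). CST1 and CST2 are close copies, so reads may have been shared between them. S100A13, S100A10 and CST3 were singled out after their values were seen. S100A14 and CST1 kept their edgeR calls without each library in turn. Those of S100A13, S100A10, CST2 and CST3 were lost without day 2 replicate 1 or 2 (adjusted p 0.0559 to 0.147), those of S100A13 and S100A10 also without day 4 replicate 2 or 4, and that of S100A10 without day 2 replicate 4 (0.0509 to 0.077).

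Epithelial genes were among those that rose. Of 34 junction, keratin and polarity genes tested, 8 were called higher (EPCAM, CLDN3, CRB3, PKP2, KRT8, KRT18, RAB25 and SPINT2) and 1 lower (CLDN10), against 1.88% and 0.58% of all genes tested. The list's median log2 fold change was 0.89, or 0.59 without day 2 replicate 1 and 0.53 without day 4 replicate 4. CLDN3, a claudin of tight junctions, was at 0.0552, 0.176 and 0.356 CPM on day 2 and at 5.62, 11.1 and 3.5 CPM on day 4 (log2 fold change 5.13, SE 0.75, edgeR adjusted p = 0.00396). PKP2, a plaque protein of desmosomes, was at 26.5, 28.6 and 15.3 and then 110.3, 72.8 and 68.9 CPM (log2 fold change 1.84, SE 0.31, edgeR adjusted p = 0.00786). The keratins of simple epithelium rose together, KRT8 from 625, 603 and 674 to 1604, 1473 and 2272 CPM and KRT18 from 397, 369 and 406 to 1039.9, 616 and 1068 CPM (edgeR adjusted p = 0.0168 and 0.0494), neighbours with no gap between them in RefSeq and with many processed copies in the genome. EPCAM, an adhesion molecule, was at 58.4, 60.4 and 39.9 and then 321, 180.4 and 125 CPM (edgeR adjusted p = 0.0306), which stayed below its day 0 mean of 564 CPM. CLDN10 fell from 9.98, 9.81 and 17.3 to 4.08, 2.52 and 5.19 CPM (edgeR adjusted p = 0.0449). CLDN3 and PKP2 kept their edgeR calls without each library in turn. Those of CRB3, RAB25, KRT8, KRT18, EPCAM, SPINT2 and CLDN10 were lost without day 2 replicate 1 or 2 (adjusted p 0.0509 to 0.215). RAB25 and SPINT2 also lost theirs without day 4 replicate 2 or 4, KRT8 without day 4 replicate 4, KRT18 without any other library but day 4 replicate 2, EPCAM without any other but day 4 replicate 4, and CLDN10 without any other (0.0525 to 0.212).

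The main cadherins were not called. CDH1, E-cadherin, was at 19.9, 18.3 and 55.3 CPM on day 2 and 16.5, 8.38 and 54 CPM on day 4, against a day 0 mean of 302 CPM, and CDH2, N-cadherin, was at 1452, 1293 and 1060.3 and then 1407, 1313 and 1507 CPM (edgeR adjusted p = 0.893 and 0.748). Both pairs of groups overlapped. Of 23 mesenchymal genes tested edgeR called 0 (unadjusted 3 higher and 2 lower, DESeq2 2 and 0), and VIM, vimentin, was at 1699.8, 1227 and 1415 and then 945, 1526 and 2071 CPM. With 2.46% of all genes tested called in either direction, 0 of 23 was near that share. Among apical genes chosen after their values were seen, villin (VIL1) was at 0.203, 0.301 and 0.986 and then 6.09, 9.38 and 3.39 CPM and the junction adaptor TJP3 at 0.0737, 0.0251 and 0.11 and then 2.28, 1.24 and 1.59 CPM (edgeR adjusted p = 0.00882 and 0.0101). CDH1, CDH2, PKP2, CLDN10 and SPINT2 also fell outside the naming rule. The calls of VIL1 and TJP3 were lost without day 2 replicate 1 or 2 (edgeR adjusted p 0.0635 to 0.0725).

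Part of the basement membrane genes rose. Of 28 laminin, collagen IV, perlecan and integrin genes tested, 6 were called higher (LAMB2, COL4A2, COL4A6, COL18A1, HSPG2 and ITGA6) and ITGA1 was called lower, against 1.88% and 0.58% of all genes tested. In this list 24 of 28 were above 0, against 50.9% of all genes tested, with a median log2 fold change of 0.99. COL18A1, which yields endostatin, was at 96.6, 113 and 207 CPM on day 2 and at 519, 542 and 512 CPM on day 4 (log2 fold change 1.92, SE 0.44, edgeR adjusted p = 0.0335). HSPG2, perlecan, was at 56.8, 87.8 and 142 and then 339, 434 and 450.1 CPM, and COL4A2 at 123, 140.0 and 181 and then 405, 417 and 472 CPM (edgeR adjusted p = 0.0406 and 0.0397). In these genes the day 4 libraries lay close together and above every day 2 library. The main laminin chains were not called: LAMA1 was at 389, 452 and 307 and then 1044, 488 and 504 CPM and LAMC1 at 344, 384 and 431 and then 604, 321 and 436 CPM (edgeR adjusted p = 0.316 and 0.745). ITGA1, a collagen receptor chain, fell from 21, 24.2 and 22.7 to 12.4, 6.63 and 7.74 CPM, while ITGA6, a laminin receptor chain, rose from 47.9, 42.9 and 30.8 to 235, 101 and 99.8 CPM (edgeR adjusted p = 0.0371 and 0.0278). LAMA1, LAMC1, LAMB2 and ITGA1 fell outside the naming rule. The edgeR calls of all 7 genes were lost without day 2 replicate 1 or 2 (adjusted p 0.0897 to 0.232). Day 4 replicate 2 ended all but that of ITGA6, day 4 replicate 4 all but those of COL4A6 and ITGA6, day 2 replicate 4 those of COL4A6, ITGA6 and ITGA1, and day 4 replicate 1 those of COL4A6 and ITGA6 (0.057 to 0.154).

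**Figure D3:**
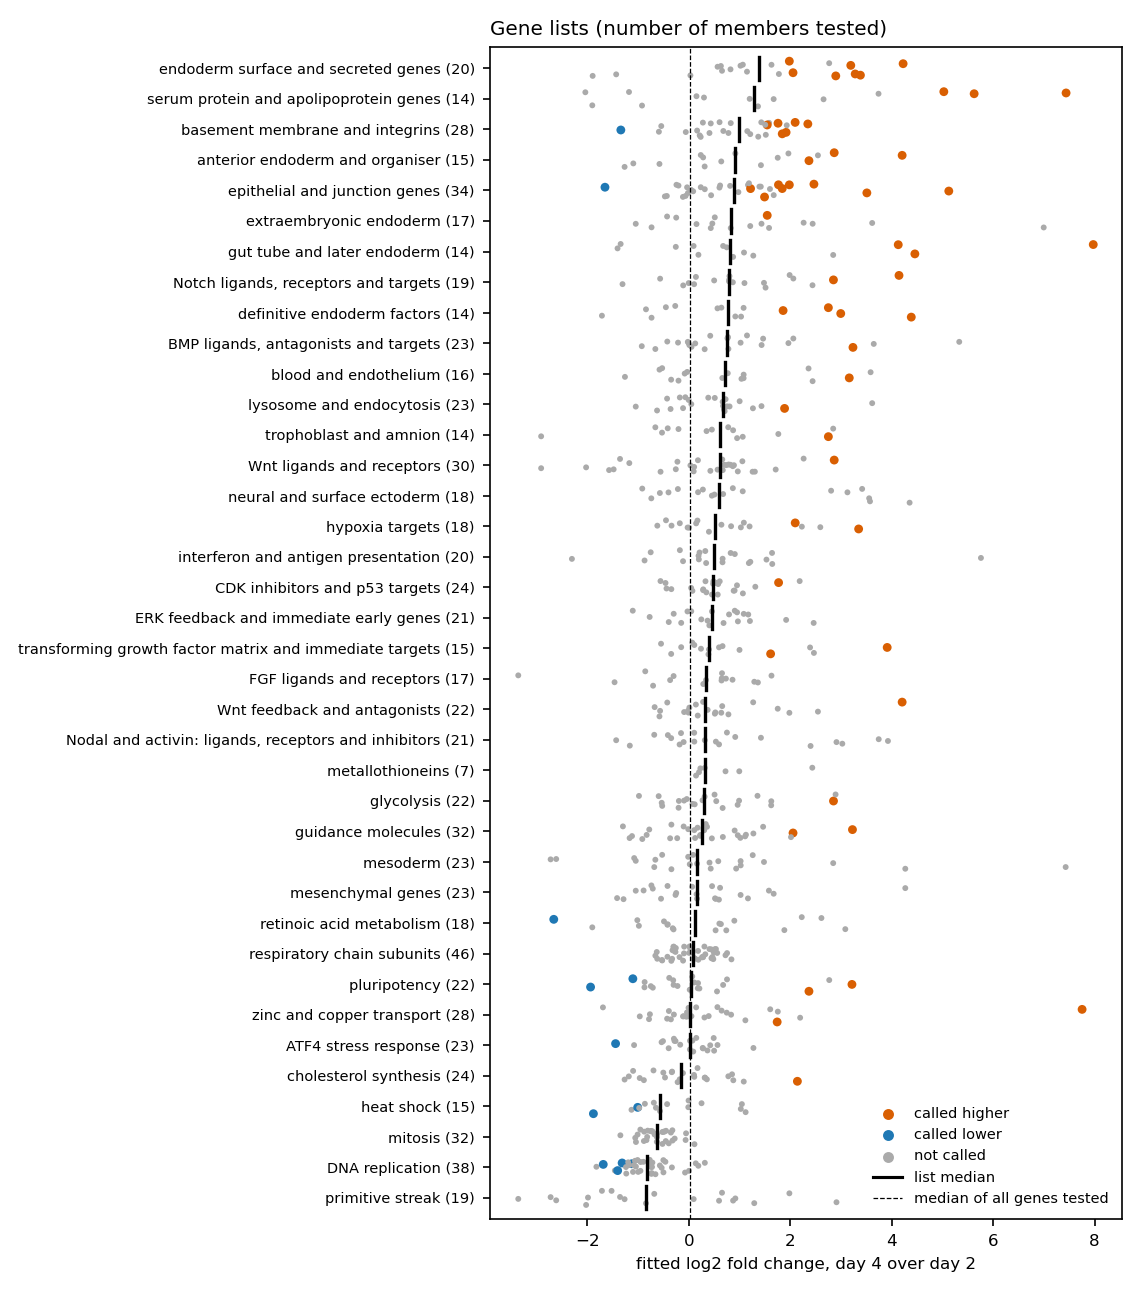
Fitted log2 fold change of day 4 over day 2 for the tested members of 38 gene lists (x axis), with lists ordered by median and the number of members tested in brackets. Each point is a gene, black bars are list medians and the dashed line is the median over all genes tested, 0.02. With all libraries the endoderm surface list has the highest median (1.39), and the lists for mitosis (-0.63), DNA replication (-0.83) and primitive streak (-0.85) have the lowest. The top rank was not kept without day 2 replicate 2, day 2 replicate 4 or day 4 replicate 2, or without replicate 1 of days 2 to 4. Nor was it kept with a filter of over 1 CPM in 3 libraries, or with days 2 and 4 alone, with or without the replicate block.

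Single genes of Wnt signalling rose, though few of the listed Wnt genes were called. PORCN, the acyltransferase that Wnt ligands need for release, was at 7.48, 7.4 and 7.01 CPM on day 2 and at 67.4, 57.1 and 92.5 CPM on day 4 (log2 fold change 3.31, SE 0.32, edgeR adjusted p = 0.000216). FZD5, a Wnt receptor, was at 165, 187 and 57.1 and then 744, 1818 and 420.3 CPM (log2 fold change 2.87, SE 0.63, edgeR adjusted p = 0.0289). FRZB, a secreted antagonist that binds Wnt ligands, was at 15.3, 16.5 and 3.56 and then 209, 251 and 193 CPM (log2 fold change 4.21, SE 0.76, edgeR adjusted p = 0.0101). In all 3 genes every day 4 library was above every day 2 library. TLE2, a corepressor, was at 4.53, 8.86 and 15 and then 25.9, 132 and 72 CPM, and WLS, which carries Wnt ligands to the membrane, at 221, 221 and 264 and then 545, 430.0 and 496 CPM (edgeR adjusted p = 0.0299 and 0.0403). AXIN2, a feedback gene that reports Wnt activity, was at 58.1, 69.5 and 53.9 and then 58.4, 94.4 and 67.6 CPM (edgeR adjusted p = 0.711). Of 30 Wnt ligand and receptor genes 1 was called higher and 0 lower (unadjusted 5 and 3, DESeq2 2 and 1), and of 22 feedback and antagonist genes 1 and 0 (unadjusted 5 and 0, DESeq2 4 and 0), against 1.88% higher over all genes tested. PORCN, TLE2, WLS and AXIN2 were chosen after their values were seen. PORCN kept its edgeR call without each library. FRZB lost it without day 2 replicate 1, and FZD5, TLE2 and WLS without day 2 replicate 1, day 2 replicate 2 or day 4 replicate 2 (adjusted p 0.0591 to 0.184). FZD5 also lost it without day 2 replicate 4, TLE2 and WLS without day 4 replicate 4 and WLS without day 4 replicate 1 (0.0521 to 0.0946).

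Single genes of the hedgehog, BMP, Notch and guidance groups rose. IHH, the hedgehog ligand of gut endoderm, was at 0.166, 0.0502 and 0.0548 CPM on day 2 and at 7.03, 45.8 and 18.8 CPM on day 4 (log2 fold change 7.98, SE 1.44, edgeR adjusted p = 0.0101). HHIP, a hedgehog-binding inhibitor that hedgehog signalling induces, was at 0.957, 0.577 and 0.63 and then 13.9, 3.39 and 2.76 CPM (edgeR adjusted p = 0.0386), while PTCH1, another response gene, was at 30.5, 36.6 and 47.6 and then 77.2, 42 and 64.4 CPM and GLI1 at 4.68, 3.97 and 5.21 and then 2.95, 1.78 and 2.58 CPM (edgeR adjusted p = 0.397 and 0.187). The BMP family ligand GDF6 was the 1 gene called among 23 of its list, at 0.423, 1 and 0.466 and then 4.02, 7.71 and 6.11 CPM (edgeR adjusted p = 0.0168). Among 19 Notch genes HES4, a response gene, went from 0.166, 0.452 and 0.219 to 4.57, 5.11 and 5.12 CPM and LFNG, which modifies Notch receptors, from 0.865, 0.828 and 1.45 to 15.3, 5.09 and 2.23 CPM (edgeR adjusted p = 0.0119 and 0.0425). The semaphorins SEMA3C and SEMA3E, guidance ligands, rose from 1.73, 2.08 and 0.795 and 77.9, 76.2 and 39.2 CPM to 23.2, 8.62 and 11.4 and 312, 293 and 198 CPM (edgeR adjusted p = 0.0157 and 0.0139). They were the 2 called among 32 guidance genes, with 0 lower (unadjusted 5 higher and 6 lower, DESeq2 2 and 2). The guidance list moved both ways, as 5 genes had every day 4 library above day 2 and 6 below. Over all genes tested 1.88% were called higher, and 10.8% and 9.64% lay above and below day 2 in this way. EdgeR called 0 of 17 FGF ligands and receptors (unadjusted 4 higher and 2 lower, DESeq2 1 and 1) and 0 of 21 ERK feedback and immediate early genes (unadjusted 4 higher, DESeq2 3 higher). The edgeR calls of IHH, HHIP, GDF6, HES4, LFNG, SEMA3C and SEMA3E were lost without day 2 replicate 1 and all but that of HES4 without day 2 replicate 2 (adjusted p 0.0541 to 0.2). Those of HHIP and LFNG were also lost without day 2 replicate 4 or day 4 replicate 1, and those of GDF6 and LFNG without day 4 replicate 2 (0.0519 to 0.111). HHIP, PTCH1 and GLI1 were chosen after their values were seen.

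CCKBR, IGFBP5 and DIO3 were higher as well. CCKBR, the gastrin receptor, was at 53.9, 55.9 and 73.3 CPM on day 2 and at 291, 1316 and 630.0 CPM on day 4 (log2 fold change 3.61, SE 0.52, edgeR adjusted p = 0.00396). IGFBP5, which binds insulin-like growth factors, was at 1.36, 1.2 and 1.67 and then 12.6, 188 and 38 CPM (log2 fold change 5.82, SE 0.98, edgeR adjusted p = 0.00813), highest in day 4 replicate 2. DIO3, which inactivates thyroid hormone, was at 86.7, 83.6 and 87.2 and then 263, 920.5 and 734 CPM (edgeR adjusted p = 0.0158). CCKBR and DIO3 were chosen after their values were seen. CCKBR kept its edgeR call without each library, while those of IGFBP5 and DIO3 were lost without day 2 replicate 1 or 2 and that of DIO3 without day 4 replicate 2 (adjusted p 0.0559 to 0.102).

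Genes of the Nodal pathway itself were split between the day 4 libraries. NODAL was at 51.6, 65.2 and 44.7 CPM on day 2 and at 1.63, 180.0 and 62.3 CPM on day 4. Its induced inhibitor LEFTY1 was at 82.9, 115 and 41.8 and then 1.2, 1522 and 425 CPM, and LEFTY2 at 68.6, 140.2 and 67.5 and then 42.4, 1201 and 215 CPM. For all 3 genes day 4 replicate 1 was below every day 2 library, whereas replicate 2 was above them all. CER1, a secreted inhibitor of Nodal and BMP, was at 4767, 5388 and 3458 and then 397, 2683 and 1958 CPM, below day 2 in every library. None was called (edgeR adjusted p = 0.802, 0.354, 0.299 and 0.264). Over 21 ligands, receptors and inhibitors of the pathway edgeR called 0 in either direction (unadjusted 6 higher and 1 lower, DESeq2 3 and 0), with a median log2 fold change of 0.31, which lay between 0.006 and 0.79 without 1 library, lowest without day 2 replicate 1 and highest without day 2 replicate 4. Over all genes tested edgeR called 2.46% in either direction, so 0 of 21 was near that share. TDGF1, the Nodal coreceptor, was at 274, 339 and 519 and then 222, 481 and 514 CPM.

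The same library was low in streak genes. MIXL1 was at 265, 219 and 513 CPM on day 2 and at 5.24, 136 and 163 CPM on day 4, GSC at 18.1, 24.1 and 121 and then 1.9, 201 and 105 CPM, and EOMES at 473, 472 and 548 and then 81.6, 373 and 376 CPM (edgeR adjusted p = 0.334, 0.729 and 0.451). FGF8, chosen after its values were seen, was at 9.35, 9.76 and 26.5 CPM on day 2 and 1.57, 31.9 and 38.2 CPM on day 4. Day 3 replicate 1 was low likewise, with NODAL at 2.49, LEFTY1 at 0.72 and MIXL1 at 15.8 CPM, whereas day 2 replicate 1 was not. T (brachyury), the mesoderm and streak factor, was at 4.23, 3.51 and 11.1 CPM on day 2 and 1.1, 1.1 and 2.58 CPM on day 4, below day 2 in every library but not called (edgeR adjusted p = 0.0724). Among 19 streak genes 8 had every day 4 library below day 2 and 2 (10.5%) above, against 9.64% and 10.8% of all genes tested. The share above was thus near that of all genes. The streak list's median log2 fold change was -0.85, and edgeR called 0 of its genes (unadjusted 2 higher and 5 lower, DESeq2 2 and 3), against 2.46% of all genes tested in either direction. The summed level of the streak genes was 277 CPM in day 4 replicate 1, against 1436 and 1448 CPM in the other day 4 libraries and 1430.3 to 2543 CPM on day 2. Leaving out day 4 replicate 1 moved the list's median to -0.47. Leaving out day 2 replicate 4 moved it to 0.05, so its sign rested on that library. What sets day 4 replicate 1 apart was not tested.

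**Figure D4:**
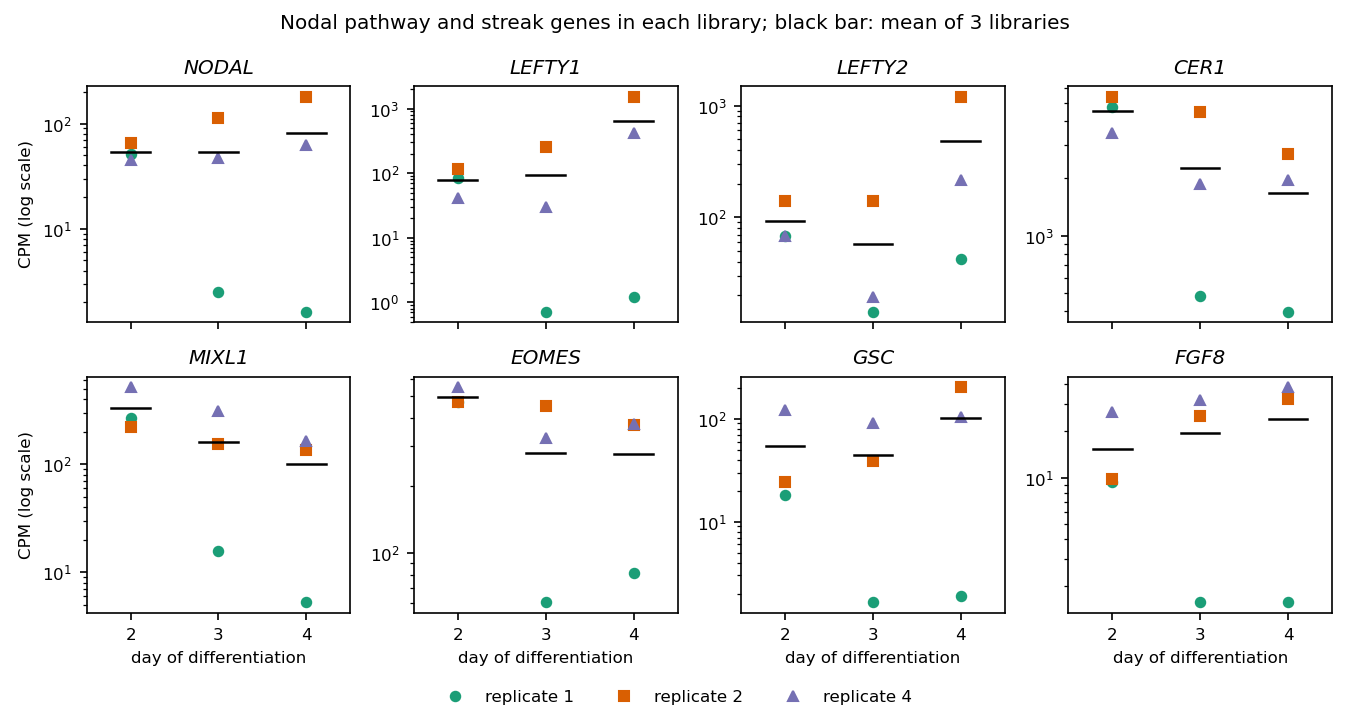
Level of 8 Nodal pathway and streak genes in each library of days 2, 3 and 4 (x axis), in CPM on log y axes that differ between panels. Symbols are replicates and black bars their means. Replicate 1 is the lowest library of all 8 genes on days 3 and 4.

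Pluripotency genes were called in both directions. Of 22 tested, 2 were called higher (PODXL and FOXD3) and 2 lower (ZFP42 and DNMT3B), against 1.88% and 0.58% of all genes tested. The list's median log2 fold change was 0.04, with either sign when 1 library was left out (-0.44 without day 4 replicate 4, 0.28 without day 2 replicate 4). POU5F1 was at 41.7, 43.4 and 215 CPM on day 2 and 16.8, 28 and 119 CPM on day 4, NANOG at 30, 40.8 and 36.6 and then 12.6, 17.5 and 56.6 CPM, and SOX2 at 5.41, 5.65 and 4.25 and then 6.09, 3.75 and 14.7 CPM (edgeR adjusted p = 0.625, 0.813 and 0.527). Their groups overlapped, and the day 0 means were 449, 173 and 201 CPM. DNMT3B, a de novo DNA methyltransferase, fell from 529, 441 and 559 to 230.4, 162 and 318 CPM (log2 fold change -1.11, SE 0.27, edgeR adjusted p = 0.0453), and ZFP42 (REX1) from 88.7, 71.4 and 37.8 to 25.5, 8.94 and 17.1 CPM (log2 fold change -1.94, SE 0.45, edgeR adjusted p = 0.0361). PODXL, podocalyxin, a sialylated surface protein that is also made by polarized epithelia, rose from 759, 709.8 and 317 to 7701, 5214 and 3682 CPM (log2 fold change 3.22, SE 0.47, edgeR adjusted p = 0.00396), past its day 0 mean of 2335 CPM. PODXL kept its edgeR call without each library, while that of ZFP42 was lost without day 2 replicates 1 or 2 or day 4 replicates 2 or 4, and that of DNMT3B without every library but day 4 replicate 4 (adjusted p 0.0851 to 0.229). FOXD3 was at 0.0737, 0.377 and 0.247 CPM on day 2 and 0.569, 1.28 and 1.73 CPM on day 4, and its call was lost without any library but day 4 replicate 1 (edgeR adjusted p 0.06 to 0.159).

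Most cell cycle genes had fitted changes below 0. Of 38 DNA replication genes 4 were called lower (ORC1, CDC45, MCM10 and RRM2) and 0 higher (unadjusted 24 lower and 0 higher, DESeq2 12 and 0), 34 had a fitted change below 0, and 17 had every day 4 library below day 2. Over all genes tested 0.58% were called lower, 9.64% had every day 4 library below day 2 and 8526 of 17401 had a fitted change below 0. The replication list's median log2 fold change was -0.83. ORC1, a subunit of the origin recognition complex, was at 97.1, 92.8 and 100.2 CPM on day 2 and at 44, 34.4 and 38.1 CPM on day 4 (log2 fold change -1.32, SE 0.28, edgeR adjusted p = 0.0241). RRM2, which makes deoxynucleotides, was at 313, 222 and 94.3 and then 77.9, 53 and 64.5 CPM (log2 fold change -1.69, SE 0.40, edgeR adjusted p = 0.0384). Of 32 mitosis genes edgeR called 0 (unadjusted 16 lower and 0 higher, DESeq2 5 lower), but 31 had a fitted change below 0 and 21 had every day 4 library below day 2, with a median of -0.63. TOP2A was at 951, 1023 and 678 and then 661, 596 and 459.8 CPM and CCNB1, cyclin B1, at 500.1, 363 and 329 and then 184, 273 and 258 CPM (edgeR adjusted p = 0.256 and 0.151). The median of the mitosis list lay between -0.75 and -0.35 and that of the replication list between -1.09 and -0.70 under all alternatives run. CDKN1C, an imprinted inhibitor of cyclin-dependent kinases, was the 1 gene of 24 called in its list, against 1.88% of all genes tested called higher. It rose from 14.5, 18.4 and 22.3 to 47, 62 and 79 CPM (edgeR adjusted p = 0.0346). The edgeR calls of ORC1, CDC45, MCM10, RRM2 and CDKN1C were each lost without day 2 replicate 1, day 2 replicate 2, day 4 replicate 2 or day 4 replicate 4 (adjusted p 0.0635 to 0.22).

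Histone cluster genes had a lower median still. HIST1H2BK was at 169, 157 and 72.6 CPM on day 2, 19, 17.1 and 25 CPM on day 3 and 13.4, 22.2 and 22.6 CPM on day 4 (log2 fold change -2.78, SE 0.42, edgeR adjusted p = 0.00457). HIST1H2AC fell from 7.27, 6 and 5.67 to 0.569, 1.68 and 1.48 CPM (edgeR adjusted p = 0.0276), a call lost without any of the libraries but day 2 replicate 4 (0.0601 to 0.123). Over the 50 histone cluster genes tested, 2 were called lower and 0 higher (unadjusted 16 lower and 0 higher, DESeq2 7 lower), against 0.58% lower over all genes tested. Of these histone genes 42 had a change below 0, against 8526 of all 17401 genes tested, and their median log2 fold change was -1.49. With a filter of over 1 CPM in 3 libraries 14 histone genes were left, 13 of them below 0, with a median of -1.90. The summed level of the histone cluster genes was 205, 191 and 110.2 CPM on day 2 and 20.1, 37.3 and 40.2 CPM on day 4. HIST1H2BK alone made up most of this sum in each library. Most histone mRNAs of S phase lack a polyA tail, and the libraries were polyA selected. Histone genes are near-identical copies, and reads may have been split between them.

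NPM1, DDX21, PAICS, GART, HPRT1, PSAT1, HSP90AB1 and HSPH1 were among the genes that fell. The nucleolar proteins NPM1 and DDX21 fell from 4123, 2532 and 1959.6 and 626, 469 and 379 CPM to 1050.4, 918 and 980.4 and 259, 139 and 191 CPM (edgeR adjusted p = 0.0376 and 0.0406). PAICS and GART, enzymes of purine synthesis, fell from 1014, 948 and 669.8 and 228, 179 and 165 CPM to 466, 312 and 348 and 105, 68.6 and 91.2 CPM, and HPRT1, the salvage enzyme, from 82.9, 56.5 and 42.5 to 24.1, 15.4 and 15.9 CPM (edgeR adjusted p = 0.0289, 0.0273 and 0.0168). PSAT1, of serine synthesis, fell from 730.0, 574 and 874 to 378, 217 and 205 CPM (edgeR adjusted p = 0.0402). Among 15 heat shock genes HSP90AB1 and HSPH1 were called lower and 0 higher (unadjusted 4 lower, DESeq2 4 lower), against 0.58% lower over all genes tested. The heat shock list's median log2 fold change was -0.57, or -0.34 without day 2 replicate 1. HSP90AB1, the constitutive cytosolic HSP90, was at 3636, 3727 and 3013 CPM on day 2 and at 1804, 1549.8 and 1798 CPM on day 4 (log2 fold change -1.01, SE 0.24, edgeR adjusted p = 0.0355). In each of these genes except HSPH1 every day 4 library was below every day 2 library, and HSPH1 went from 768, 596 and 153 to 159, 99.6 and 153 CPM. NPM1 and HSP90AB1 have many processed copies, and DDX21, GART and HPRT1 were chosen after their values were seen. All 8 calls were lost without day 2 replicate 1 or 2 or day 4 replicate 2 or 4 (edgeR adjusted p 0.0522 to 0.207). Day 2 replicate 4 also ended that of PSAT1, and day 4 replicate 1 those of NPM1, HSP90AB1 and HSPH1 (0.0587 to 0.0728). Of 46 respiratory chain subunits edgeR called 0 (unadjusted 1 lower, DESeq2 0), with a median log2 fold change of 0.08, which lay between -0.024 and 0.34 without 1 library, lowest without day 4 replicate 4 and highest without day 2 replicate 4.

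CD1D, LIX1, TMEM154 and NTS were among the largest decreases. CD1D, a lipid antigen presenting molecule, was at 26.9, 20.9 and 38.1 CPM on day 2 and at 2.14, 2.89 and 4.03 CPM on day 4 (log2 fold change -3.25, SE 0.42, edgeR adjusted p = 0.00137). LIX1 fell from 29.6, 17.1 and 11.7 to 1.67, 0.2 and 0.53 CPM and the membrane protein TMEM154 from 26.3, 12.5 and 10.1 to 1.41, 0.339 and 1.52 CPM (edgeR adjusted p = 0.0101 and 0.00602). Day 0 means of CD1D, LIX1 and TMEM154 were 0.463, 0.212 and 1.13 CPM, below their day 2 levels. NTS, the precursor of neurotensin, fell from 427, 267 and 232 to 51.5, 9.44 and 51.4 CPM, and the potassium channel KCNH5 from 7.7, 9.51 and 21.5 to 0.942, 1.14 and 0.601 CPM (edgeR adjusted p = 0.0262 and 0.0101). ALDH1A2, which makes retinoic acid, fell from 1.93, 2.06 and 1.84 to 0.491, 0.14 and 0.283 CPM (edgeR adjusted p = 0.0266), while CYP26A1, which degrades it, was at 811, 698 and 1233 and then 376, 2149 and 1723 CPM and was not called (edgeR adjusted p = 0.564). The hormone convertase PCSK1 and the chemerin receptor CMKLR1, chosen with CYP26A1 after their values were seen, fell from 5.43, 3.77 and 5.34 and 1.93, 1.98 and 2.44 CPM to 0.373, 0.24 and 0.177 and 0.0785, 0.16 and 0.106 CPM. CD1D, TMEM154, KCNH5, PCSK1 and CMKLR1 kept their edgeR calls without each library, whereas those of LIX1, NTS and ALDH1A2 were lost without day 2 replicate 1, those of NTS and ALDH1A2 also without day 2 replicate 2 or day 4 replicate 2, and that of ALDH1A2 without day 4 replicate 4 (adjusted p 0.0545 to 0.113).

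SLC2A3, ADM and VEGFA were higher on day 4. SLC2A3, the glucose transporter GLUT3, was at 1112, 1100.2 and 1292 CPM on day 2 and at 6348, 10986 and 7964 CPM on day 4 (log2 fold change 2.85, SE 0.32, edgeR adjusted p = 0.000571), called without each library in turn. SLC2A14 is its near copy next to it, and it went from 6, 5.6 and 7.59 to 31.3, 50.1 and 39.8 CPM, so reads may have been shared. The call of SLC2A14, which was singled out after its values were seen, was lost without day 2 replicate 1 (edgeR adjusted p = 0.0526). SLC2A3 was the 1 called gene among 22 of glucose uptake and glycolysis (unadjusted 6 higher and 1 lower, DESeq2 3 and 1), against 1.88% over all genes, and the list's median of 0.29 became -0.17 with 13 of 22 below 0 without day 4 replicate 2. ADM, adrenomedullin, was at 5.62, 5.17 and 14.3 and then 68.9, 86.3 and 100.2 CPM (log2 fold change 3.35, SE 0.50, edgeR adjusted p = 0.00457), and VEGFA at 21.4, 29.3 and 59 and then 149, 261 and 58.3 CPM (edgeR adjusted p = 0.0366), where day 4 replicate 4 was just below day 2 replicate 4. These were the 2 genes called among 18 low-oxygen targets (unadjusted 5 higher, DESeq2 3), whose median log2 fold change was 0.52 and became -0.12 without day 4 replicate 2 and 0.79 without day 4 replicate 4. The edgeR call of ADM held without each library, and that of VEGFA was lost without day 2 replicate 1, day 2 replicate 2 or day 4 replicate 2 (adjusted p 0.17 to 0.187).

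Metallothioneins, small proteins that bind zinc and copper, were low on both days. MT2A was at 0.608, 0.577 and 2.19 CPM on day 2 and at 2.34, 3.47 and 12.4 CPM on day 4, against a day 0 mean of 14.7 CPM (edgeR adjusted p = 0.156), and MT1X at 1.91, 1.81 and 2.8 and then 1.47, 1.8 and 4.24 CPM, against 43.7 CPM on day 0. MT1G, MT1H and MT1F stayed below 1 CPM in all 6 libraries. All 7 tested had a fitted change above 0, with a median of 0.31 on the log2 scale, but edgeR called 0 (unadjusted 1 higher, DESeq2 1 higher). Over all genes tested 50.9% had a fitted change above 0, and edgeR called 1.88% higher and 0.58% lower. The metallothionein median was 1.79 without day 2 replicate 4 and 0.13, with 3 of 7 below 0, without day 4 replicate 4, and these genes are close copies. Among 28 zinc and copper transport genes ATP7B, the copper pump of liver, rose from 8.01, 10.2 and 8.49 to 33.6, 32.1 and 23.6 CPM (log2 fold change 1.74, SE 0.37, edgeR adjusted p = 0.0243), without overlap. SLC30A10, a manganese exporter, was at 0 to 0.0251 CPM on day 2 and at 0.785, 5.15 and 0.0353 CPM on day 4, highest in replicate 2. The edgeR calls of ATP7B and SLC30A10 were lost without day 2 replicate 1, day 2 replicate 2 or day 4 replicate 2 and that of SLC30A10 also without day 2 replicate 4 (adjusted p 0.0681 to 0.177).

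ADAMTS18, GJA4, DMBX1, FAM198B, COL19A1 and TMEM100 were also among the largest increases. ADAMTS18, a secreted metalloprotease, was at 0.313, 0.577 and 0.219 CPM on day 2 and at 19.2, 19.3 and 10.1 CPM on day 4 (log2 fold change 5.45, SE 0.70, edgeR adjusted p = 0.00137) and kept its call without each library. The connexin GJA4 went from 0.755, 0.427 and 0.274 to 24.8, 8.38 and 5.79 CPM and the homeobox factor DMBX1 from 0.0552, 0.151 and 0.137 to 10.8, 3.37 and 1.7 CPM (edgeR adjusted p = 0.0183 and 0.00755). FAM198B and COL19A1 were by far highest in day 4 replicate 1, with 63.5, 3.45 and 4.35 CPM and 35.8, 1.76 and 2.4 CPM on day 4 against at most 0.35 CPM on day 2. TMEM100 was at 0.442, 0.251 and 0.247 and then 12.5, 42.9 and 37.1 CPM (edgeR adjusted p = 0.0306). These 5 calls were lost without day 2 replicate 1 and all but that of DMBX1 without day 2 replicate 2 (edgeR adjusted p 0.0584 to 0.154). Those of FAM198B, TMEM100 and COL19A1 were lost without day 2 replicate 4 as well, those of FAM198B and COL19A1 without day 4 replicate 1, and that of TMEM100 without day 4 replicate 2 or 4 (0.0518 to 0.0829).

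Most called genes were already part of the way to their day 4 level on day 3. Measured in mean log2 CPM, 181 of the 327 higher genes had covered between 0.25 and 0.75 of the distance from day 2 to day 4 on day 3 and 139 had covered more. Under 0.25 there were 7, among them APOA1. For the 101 lower genes the numbers were 60, 36 and 5. FOXA2 was past 0.75, at 252, 116 and 48.2 CPM on day 3. These positions use the same day 2 and day 4 libraries that chose the genes and describe them without a test.

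**Figure D5:**
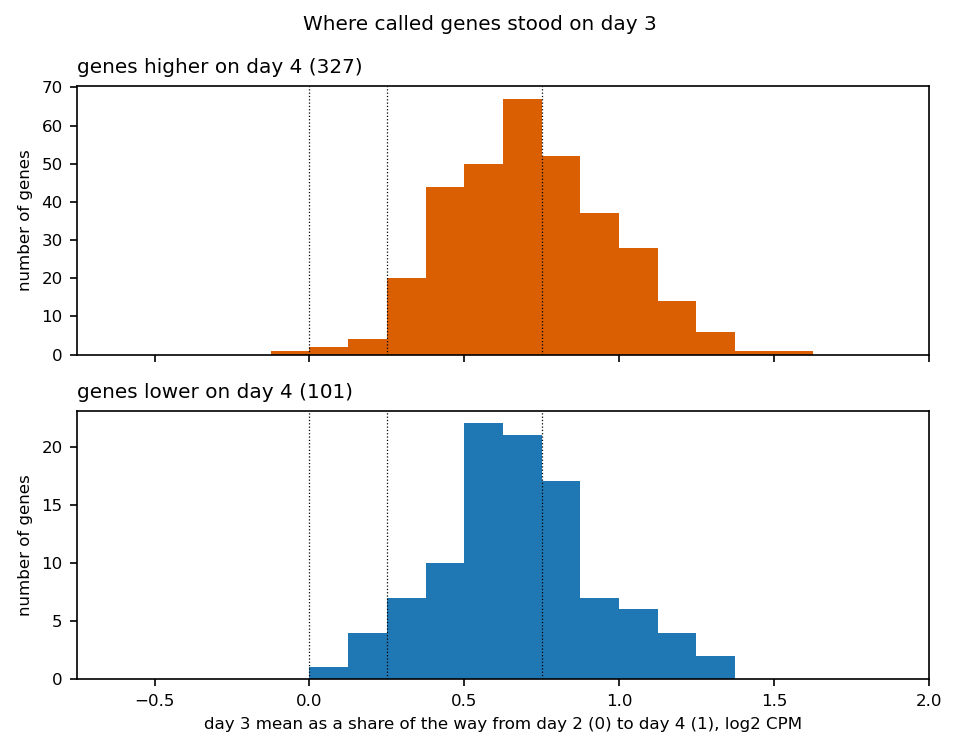
Position of the day 3 mean between day 2 (0) and day 4 (1) on the x axis, in mean log2 CPM, and the number of genes on the y axis. The 327 genes called higher are in the upper panel and the 101 called lower in the lower panel, with dotted lines at 0, 0.25 and 0.75. In both panels most genes lie to the right of 0.25.

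Compared with undifferentiated cells, the higher genes were of several kinds. The day 0 mean was below both later days for 146 of the 327, between them for 126 and above both for 55. FOXJ1, the factor of motile cilia, was of the last kind, with a day 0 mean of 10.7 CPM, 0.0552, 0.0753 and 0.0274 CPM on day 2 and 7.54, 4.51 and 0.848 CPM on day 4 (edgeR adjusted p = 0.0094, lost without day 2 replicate 1 or 2 at 0.0559 to 0.069). EPCAM, CRB3 and ADM were others. Of the 101 lower genes 50 had a day 0 mean above both later days, among them DNMT3B and NPM1, 34 lay between and 17 lay below both, among them CD1D, LIX1, NTS and ENC1. ENC1, an actin binding protein, was at 1584, 1628 and 1654 CPM on day 2 and 649, 384 and 532 CPM on day 4 (edgeR adjusted p = 0.0262, lost without day 2 replicates 1 or 2 or day 4 replicates 2 or 4 at 0.0601 to 0.115), against 134 CPM on day 0.

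The library with the highest day 4 level differed from gene to gene. Among the 327 higher genes the median ratio of the highest to the lowest day 4 library, with 0.1 CPM added to each, was 2.40. Day 4 replicate 1 was the highest of the day in 139 of them, replicate 2 in 137 and replicate 4 in 51. Among the 101 lower genes replicate 2 was the lowest in 67. CXCR4, DIO3, CCKBR and IGFBP5 were highest in replicate 2, whereas EPCAM, COL4A6 and GATA3 were highest in replicate 1. Values that agreed closely across the 3 day 4 libraries were seen in S100A16 (135 ± 8.99 CPM, SD, n = 3), S100A14 (5.06 ± 0.245 CPM) and COL18A1 (524 ± 15.8 CPM).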

How the data were processed

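RNA from H9 cells collected on days 0 to 4, 3 libraries per day, was sequenced from polyA-selected directional libraries, per the labels' protocols. The authors deposited whole-number counts per gene, and per the submitters' processing notes reads were aligned to hg19 with TopHat2 2.0.14. Which program counted the reads, with which annotation and strand setting, was not given in the sources used here. All counts were even, and whether both reads of a pair were counted is not stated.

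The table held 23398 entries. Of 52 repeating a symbol, 44 were identical and dropped and 8 were summed, leaving 23346 symbols, of which 2605 had no count. Libraries were grouped by the day in their titles. Genes were filtered with filterByExpr, leaving 17401, scaled by TMM and tested between day 4 and day 2 with edgeR 4.0.16 (limma 3.58.1, R 4.3.3) by the quasi-likelihood test in a fit of all 15 libraries with day means alone, so that all days shared the estimate of spread. Calls are at a Benjamini-Hochberg adjusted p under 0.05 over all genes tested. Intervals of counting error play little part at these depths, where the spread between libraries sets the precision. RefSeq promoters (GRCh38.p14) were matched by symbol, and no coordinate of the hg19 alignment was used.

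Named genes were the 15 largest increases and decreases with a mean of at least 5 CPM on the higher day and no overlap, a set of endoderm, streak, pluripotency and metallothionein genes, up to 4 called members of each list with the largest change or, with none, the 2 of highest level, the 10 highest-level called genes, and 3 per class of day 3 position and day 0 level. Some genes are not reported here and were left out of the lists. The members and lists were chosen with earlier results of these data known. Alternatives were DESeq2 1.42.0, its size factors, library totals, other filters, a test against a 1.5-fold change, a block for replicate number, a fit of days 2 and 4 alone, and leaving out libraries. Terms for the ribosomal protein share, halved counts, and removal of length and GC trends were added after the data were seen.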

Additional observations from a re-analysis of the deposited data

How the results depend on the processing

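Calls depended on the processing more than directions did. Against 327 genes higher and 101 lower, DESeq2 called 890 and 444, a fit of days 2 and 4 alone 86 and 12, the test against a 1.5-fold change 147 and 26, and the fit without replicate 1 of days 2 to 4 called 62 and 11. Leaving out 1 library gave 30 to 351 higher and 10 to 144 lower. Among the alternatives added after the data were seen, the term for ribosomal protein share gave 648 and 354 and removal of length and GC trends 623 and 299, while halved counts gave 349 and 110. Of the 327 and 101 genes, 307 and 85 were also called with length and GC trends removed and 82 and 12 with days 2 and 4 alone. With days 2 and 4 alone edgeR called higher 1 of 14 endoderm factors, 1 of 34 epithelial and 0 of 28 basement membrane genes. In that fit 4 of 20 endoderm surface genes and 3 of 14 gut tube genes were called higher and 0 of 38 DNA replication genes lower. DESeq2's size factors, library totals and other filters stayed within 1.5 times of the counts. Without replicate 1 of days 2 to 4, 3 called genes lay on the far side of their day 2 level on day 3 and 18 had covered 0 to 0.25 of the way to day 4. The causes were not tested.

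With the replicate block the numbers were 751 and 447, and with the block in days 2 and 4 alone 544 and 186. The deviations of same-numbered libraries of the days correlated at 0.372 for replicate 1, -0.0945 for replicate 2 and 0.378 for replicate 4 over 17401 genes. Replicates 1 and 4 thus correlated best with their own number, whereas day 2 replicate 2 correlated best with day 4 replicate 1 (0.305). Deviations are taken from the mean of the day's libraries, so these correlations are tied to each other. They do not settle whether the numbers pair the libraries, and the main fit uses no pairing. No named gene that was called reversed its direction under the alternatives run, while several list medians changed sign. Without 1 library this held for the streak, low-oxygen, pluripotency, respiratory chain and glycolysis medians, as given above. Without replicate 1 of days 2 to 4 the median of the mesoderm list went from 0.16 to -0.77, of the BMP list from 0.76 to -0.19, of the mesenchymal list from 0.15 to -0.36 and of the Nodal and activin list from 0.31 to -0.00017. Further lists changed sign from medians of at most 0.34 in size. The median of all genes was 0.02 and at most 0.11, without day 2 replicate 4. The 3 libraries a day limit what can be called, and at these depths levels under 0.0548 CPM rest on 3 counts or fewer in the shallowest library.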

Other observations

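H19, IGF2 and DLK1, imprinted genes expressed from 1 parental copy, rose and were singled out after their values were seen. H19, a noncoding RNA, was at 2.54, 4.82 and 4.96 CPM in day 2 replicates 1, 2 and 4 and at 42.8, 33.7 and 45.3 CPM on day 4 (log2 fold change 3.31, SE 0.64, edgeR adjusted p = 0.0144). IGF2, the growth factor gene beside it, was at 0.0552, 0.351 and 0.301 and then 2.47, 1.58 and 5.05 CPM, and DLK1, a Notch-like membrane protein, at 0.829, 1.03 and 2.69 and then 10.3, 10 and 3.53 CPM (edgeR adjusted p = 0.0488 and 0.0372). In each gene every day 4 library was above every day 2 library. The 3 calls were lost without day 2 replicate 1 or 2, that of IGF2 without any other library, and that of DLK1 also without day 4 replicate 1 or 2 (adjusted p 0.0505 to 0.206).

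Further genes kept their edgeR call without each library in turn and were singled out for that. COL2A1, the cartilage collagen gene that is also active in early embryonic epithelia, was at 12.2, 10.5 and 11 CPM on day 2 and 133, 86.5 and 56.6 CPM on day 4 (edgeR adjusted p = 0.00457). HTRA1, a secreted protease, was at 11.3, 20.9 and 23.2 and then 129.8, 84.5 and 164 CPM, and GPRC5C, an orphan receptor, at 2.69, 2.99 and 5.32 and then 33.4, 39.4 and 41.9 CPM (edgeR adjusted p = 0.00129 and 0.00137). SORCS1, a sorting receptor, was at 4.64, 4.49 and 2.36 and then 126, 117 and 50.5 CPM, and the cadherin CDH8 at 4.23, 2.51 and 1.78 and then 104, 34.3 and 40.9 CPM (edgeR adjusted p = 0.00474 and 0.00457).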
